A study of Mus musculus with 6 samples.

Results

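Genes of the heart muscle cell were followed here through libraries made from sorted heart leukocytes. The set holds 10 of the 57010 genes in the count table, named by symbol: Myh6, Myl2, Myl3, Ttn, Actc1, Tnnt2, Tnni3, Mb, Nppa and Atp2a2. The first 9 are treated together. Atp2a2, the 1 calcium-handling gene of the set, is reported apart, because leukocytes express it too.

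The cells were CD45+CD90.2- and came from hearts of mice with the genotype given as Ova DTG, which express ovalbumin in the heart alone. All of the mice had received OTI cells, CD8 T cells specific for ovalbumin, and the titles of both groups name myocarditis. In the 3 libraries labelled ICI the mice had been given immune checkpoint inhibitors, 200 µg of anti-CTLA-4 and 200 µg of anti-PD-1. In the 3 labelled isotype they had been given an isotype control antibody. The labels used here do not state the promoter that drives ovalbumin, the age and sex of the mice or whether hearts were pooled. The 3 libraries of a group are labelled as biological replicates.

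Heart muscle shortens when myosin thick filaments pull on actin thin filaments inside the sarcomere, the repeating unit that titin spans. Calcium switches the pull on by binding the troponin complex, and the pump encoded by Atp2a2, SERCA2, returns calcium to its store so that the muscle relaxes. CD90.2 is carried by T cells and CD45 by leukocytes in general, so a gate of this kind is meant to hold leukocytes other than T cells, and heart muscle cells do not carry CD45.

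The libraries held between 21528274 and 30736316 counts, and between 19160 and 21600 genes with at least 1 count. CD45 itself (Ptprc) stood at 1300 ± 107 CPM (counts divided by the library total and scaled to a common size) in ICI and 1012 ± 58.8 in isotype. Values with ± are means and SD over the 3 libraries of a group. Thy1, which encodes CD90, had 4 counts in the 3 ICI libraries together and 2 in the 3 isotype libraries. Replicate 3 of both groups stood apart from the rest in sex-linked genes, with 2786 and 1844 counts of Xist against at most 12 in the other 4 libraries. Counts of 4 Y-linked genes (Ddx3y, Eif2s3y, Kdm5d and Uty) summed to 6 in ICI replicate 3 and 130 in isotype replicate 3, against 3620 to 5821 in the other 4.

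The sequences just upstream of the starts of the heart muscle genes are shown first, because genes that differed in one direction are described together. RefSeq (build GRCm38.p6) gave windows of 250 bases before the start for 9 of the 10 genes, 13 windows in all. The windows of Mb at chr15:77022788-77023037 and chr15:77022728-77022977 overlap, so the 13 are not all separate. Atp2a2 had no entry. Printed are the 5 genes with a single window in which at least 1 of the 5 motifs in capitals was found, in the order Myh6 (chr14:54966608-54966857, minus strand), Myl3 (chr9:110763428-110763677, plus strand), Ttn (chr2:76982548-76982797, minus strand), Actc1 (chr2:114052876-114053125, minus strand), Nppa (chr4:148000472-148000721, plus strand). Each reads 5′ to 3′ towards the gene. Capitals mark the matches, on either strand, to the GATA core GATAA, the M-CAT core CATTCC, the TATA box TATAAA, the MEF2 site and the CArG box, and no match overlaps another in these windows.
Myh6: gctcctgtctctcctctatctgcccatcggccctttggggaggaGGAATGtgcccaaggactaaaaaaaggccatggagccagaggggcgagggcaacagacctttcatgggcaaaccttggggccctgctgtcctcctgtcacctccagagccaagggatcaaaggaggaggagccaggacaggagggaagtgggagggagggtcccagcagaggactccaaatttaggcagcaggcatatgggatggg
Myl3: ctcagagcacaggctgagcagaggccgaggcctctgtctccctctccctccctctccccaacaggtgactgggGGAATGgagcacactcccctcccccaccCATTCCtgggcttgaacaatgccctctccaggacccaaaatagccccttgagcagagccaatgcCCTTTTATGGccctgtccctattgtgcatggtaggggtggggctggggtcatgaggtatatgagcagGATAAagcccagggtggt
Ttn: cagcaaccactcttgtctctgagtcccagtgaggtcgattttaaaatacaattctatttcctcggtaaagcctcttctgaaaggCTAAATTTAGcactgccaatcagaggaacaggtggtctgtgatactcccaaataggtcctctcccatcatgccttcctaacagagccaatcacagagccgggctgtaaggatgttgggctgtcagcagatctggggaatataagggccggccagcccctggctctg
Actc1: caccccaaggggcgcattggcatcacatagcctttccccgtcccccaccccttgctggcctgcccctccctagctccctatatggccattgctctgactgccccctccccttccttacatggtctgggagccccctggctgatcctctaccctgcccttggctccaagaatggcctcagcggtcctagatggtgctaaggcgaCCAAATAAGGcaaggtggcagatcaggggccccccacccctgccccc
Nppa: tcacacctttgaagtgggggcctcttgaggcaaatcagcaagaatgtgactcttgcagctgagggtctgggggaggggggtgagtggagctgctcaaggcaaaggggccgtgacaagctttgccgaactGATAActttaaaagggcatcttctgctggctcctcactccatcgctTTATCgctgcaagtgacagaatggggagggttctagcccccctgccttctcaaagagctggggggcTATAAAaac
The CArG box, the element bound by serum response factor, was found upstream of Actc1 and Myl3. That was 2 of the 13 windows, against 1.47% of 32851 mouse windows of the same length. The MEF2 site was found upstream of Ttn, in 1 of 13 windows against 2.92%. The M-CAT core lay upstream of Myh6, Myl3 and Tnnt2, in 3 of 13 windows against 12.6%. The GATA core lay upstream of Myl2, Myl3, Nppa and Tnnt2, in 4 of 13 windows against 22.6%. The TATA box lay upstream of Myl2 and Nppa, in 2 of 13 windows against 12.4%. The single window of Tnni3 held none of these 5 motifs. The E-box CANNTG, which reads the same on both strands, was also searched and is not in capitals. It lay upstream of 8 of the 9 genes, all but Actc1, in 12 of their 13 windows against 66.2% of all windows. The overlapping windows of Mb share E-boxes, which are thus counted in each of them. A match is a run of letters and not a measured binding site.

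RNA of the 9 heart muscle genes was present in every library and was more abundant in each ICI library than in any isotype library. Their summed level was 58.7, 44.1 and 59.7 CPM in ICI replicates 1, 2 and 3, and 8.36, 5.43 and 13.5 CPM in isotype replicates 1, 2 and 3. The lowest ICI library thus stood above the highest isotype library. The group means were 54.2 ± 8.73 and 9.10 ± 4.08 CPM, a ratio of 5.95, which rose to 7.86 without isotype replicate 3 and was 4.99 with Mb left out of the sum. In counts, the 9 genes took 1339, 1046 and 1285 of an ICI library and 247, 134 and 415 of an isotype library, or 0.00542% and 0.00091% of all counts on average. In sorted cells measured in bulk, fewer cells of a type and less RNA per cell cannot be told apart. How this RNA came to be in libraries of CD45+ cells was not tested.

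Each gene was tested with edgeR's quasi-likelihood test on the deposited counts. Genes with too few counts were left out by the tool's default filter, library sizes were corrected with TMM factors, and p-values were adjusted by Benjamini-Hochberg over 14575 genes. A gene with few isotype counts can pass that filter through the ICI libraries alone, and is then hardly open to a call of lower. This limits each comparison of such genes with the share of calls among all tested genes. The threshold for a call was an adjusted p of 0.05, and log2 fold changes are ICI minus isotype. All 9 genes passed the filter and 9 of 9 were called higher in ICI, where 35.0% of all tested genes were called higher and 33.9% lower, 68.9% in all. Among the 3154 tested genes in the same range of mean level (0.983 to 6.87 CPM), 47.9% were called higher and 18.5% lower, so a call was common for genes of this level. The 9 genes did not overlap between groups, which held with ICI higher for 45.3% of all tested genes and for 55.9% of those in that range. Their median log2 fold change was 2.23, beside 0.03 for all tested genes and 0.55 in that range. Seen gene by gene, 2.90% of all tested genes had a higher log2 fold change than Mb, the first of the 9, and 15.2% a higher one than Tnnt2, the last.

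**Figure D1:**
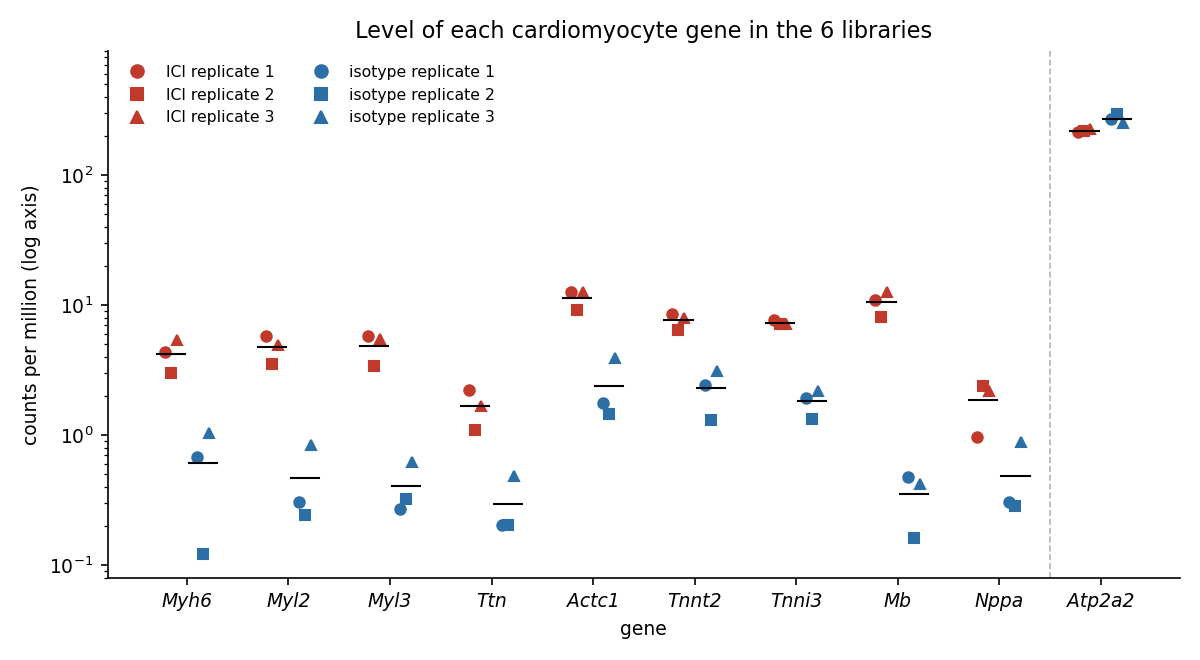
Level of each gene in CPM (log axis) in the 3 ICI libraries (red) and the 3 isotype libraries (blue), with the replicate number as the marker shape and the group mean as a line. The red points of the 9 genes left of the dashed line all lie above the blue ones, while for Atp2a2, near 219 and 271 CPM, they lie below.

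Among the genes of the thick filament, the light chains had larger fold changes than the heavy chain. Differences between the fold changes of these genes were not tested. Myh6 encodes the alpha myosin heavy chain, the motor of the adult mouse heart. Its counts (ENSMUSG00000040752) were 99, 71 and 115 in ICI and 20, 3 and 32 in isotype replicates 1, 2 and 3. All ICI libraries lay above all isotype libraries, and isotype replicate 2 was the lowest of the 6. In CPM this was 4.23 ± 1.18 against 0.613 ± 0.463, with an edgeR log2 fold change of 2.50 (SE 0.43, adjusted p = 0.000748). Myh7, the beta heavy chain of the fetal and stressed mouse heart, had 3 counts in ICI and 3 in isotype, too few to be tested. The 2 heavy chains are near-identical in long stretches, so their reads may be counted to either.

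Myl2, the regulatory light chain of ventricular myosin (ENSMUSG00000013936), had 131, 83 and 106 counts in ICI and 9, 6 and 26 in isotype. The groups did not overlap, and isotype replicate 3 held more of the isotype counts than the other 2 libraries together. Its log2 fold change was 3.08 (SE 0.38, adjusted p = 5.83e-05, 4.72 ± 1.14 against 0.465 ± 0.332 CPM), an 8.48-fold difference that became 14.2-fold without isotype replicate 3. Myl3, the essential light chain that sits on the same myosin neck, had nearly the same counts. They were 131, 80 and 118 in ICI and 8, 8 and 19 in isotype (ENSMUSG00000059741). Every ICI library was above every isotype library, and the log2 fold change was 3.35 (SE 0.35, adjusted p = 2.07e-05, 4.87 ± 1.30 against 0.405 ± 0.187 CPM). The count ratio of Myl2 to Myl3 was 1.00, 1.04 and 0.898 in ICI and 1.13, 0.75 and 1.37 in isotype. Both light chains thus kept close to 1 count for 1 in ICI. The isotype ratios rest on 6 to 26 counts of each gene, and whether they scattered beyond counting error was not tested.

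Ttn encodes titin, the elastic protein that spans from the Z-disc to the middle of the sarcomere (ENSMUSG00000051747). It had 51, 26 and 36 counts in ICI and 6, 5 and 15 in isotype, with no overlap. The log2 fold change was 2.23 (SE 0.44, adjusted p = 0.00127, 1.67 ± 0.570 against 0.298 ± 0.165 CPM), the same as the median of the 9.

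Actc1, Tnnt2 and Tnni3, the thin filament genes of the set, had smaller fold changes than Myh6, Myl2, Myl3 and Ttn. These differences were not tested. The gap between Actc1 and Ttn was smaller than the SE of either. Without ICI replicate 1 the log2 fold change was 1.943 for Actc1 and 1.940 for Ttn. Actc1, cardiac alpha-actin, the main actin of heart muscle (ENSMUSG00000068614), had 285, 216 and 269 counts in ICI and 52, 36 and 120 in isotype. Isotype replicate 3 stood well above the other isotype libraries and still below all of ICI. The log2 fold change was 2.03 (SE 0.32, adjusted p = 0.000536, 11.4 ± 1.96 against 2.38 ± 1.33 CPM). Acta1, the skeletal alpha-actin, had 44 counts in ICI and 12 in isotype and was also called, 3.89-fold higher (adjusted p = 0.00339). The pooled count ratio of Actc1 to Acta1 was 17.5 in ICI and 17.3 in isotype. The muscle actins are near-identical, so their counts are uncertain one by one.

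The fold changes of troponin T and troponin I were smaller than that of the actin. Tnnt2, the troponin subunit that holds the complex on tropomyosin (ENSMUSG00000026414), had 193, 152 and 171 counts in ICI and 72, 32 and 96 in isotype. The groups did not overlap, and the log2 fold change of 1.51 (SE 0.26, adjusted p = 0.00054) was the smallest of the 9. Its mean level was 7.61 ± 1.07 CPM in ICI and 2.29 ± 0.922 in isotype. Tnni3, the inhibitory subunit of cardiac troponin (ENSMUSG00000035458), had 176, 169 and 154 counts in ICI and 57, 33 and 67 in isotype. It was the steadiest of the 9 within groups, at 7.33 ± 0.336 against 1.82 ± 0.432 CPM, with a log2 fold change of 1.80 (SE 0.20, adjusted p = 2.82e-05).

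Mb, which encodes the oxygen-binding protein myoglobin, had the largest fold change of the 9 (ENSMUSG00000018893). It had 251, 192 and 269 counts in ICI and 14, 4 and 13 in isotype. The lowest ICI library, replicate 2, stood far above all 3 isotype libraries. The mean levels were 10.5 ± 2.24 and 0.353 ± 0.167 CPM, and the log2 fold change was 4.63 (SE 0.30, adjusted p = 1.03e-06, 24.8-fold).

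Nppa encodes atrial natriuretic peptide, a hormone of atrial muscle that ventricular muscle also makes under load (ENSMUSG00000041616). It had 22, 57 and 47 counts in ICI and 9, 7 and 27 in isotype. The groups came close, with ICI replicate 1 at 0.965 CPM just above isotype replicate 3 at 0.878. The log2 fold change was 1.67 (SE 0.48, adjusted p = 0.0110, 1.85 ± 0.775 against 0.489 ± 0.337 CPM). This call rested on the choice of libraries: without isotype replicate 1 the adjusted p was 0.0528, and without isotype replicate 3 the fold rose from 3.18 to 5.24. Nppa also ran against the other genes within ICI, where its highest library was replicate 2, the lowest for the other 8. Nppb, the gene of the related brain natriuretic peptide, had 4 counts in ICI and 4 in isotype and was not tested.

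**Figure D2:**
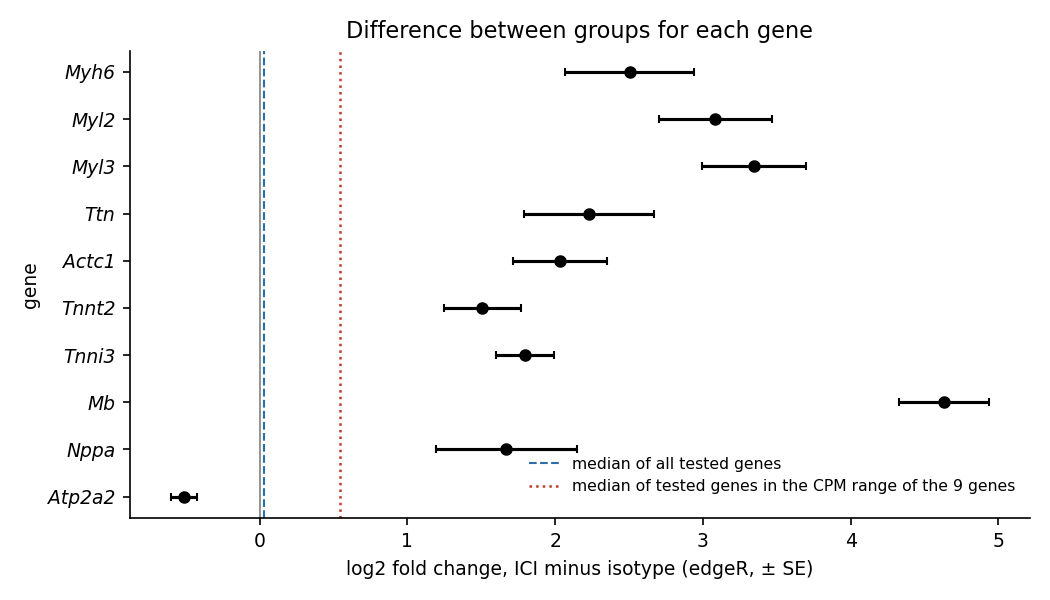
Log2 fold change (ICI minus isotype) with its SE from edgeR for the 10 genes, with the medians of all tested genes (dashed, 0.03) and of the tested genes in the CPM range of the 9 genes (dotted, 0.55). Mb lies farthest to the right at 4.63, the other 8 heart muscle genes run from 1.51 to 3.35, and Atp2a2 lies left of 0 at -0.51.

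The heart muscle genes also varied together among the libraries of a group. Isotype replicate 3 was the highest isotype library for 8 of the 9 genes, all but Mb, and isotype replicate 2 the lowest for 8. In ICI, replicate 2 was the lowest for 8 genes, all but Nppa, and replicate 1 the highest for 6. Isotype replicate 3 is also the library of its group with Xist counts, and ICI replicate 3, the other such library, was the highest of its group for 2 of the 9. Genes with at least 1 count numbered 20115, 19160 and 21085 in isotype replicates 1, 2 and 3, the same order as the 9-gene sums. The total counts of these libraries, 29543157, 24657436 and 30736316, had that order too. In ICI the genes with at least 1 count numbered 21600, 21416 and 21395, in another order than the sums. Whether this variation was particular to the heart muscle genes was not tested.

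Although all 9 genes were higher in ICI, they did not keep one ratio to each other. Mb made up 18.8%, 18.4% and 20.9% of the 9-gene counts in ICI replicates 1, 2 and 3 and 5.67%, 2.99% and 3.13% in isotype. The exact 95% binomial intervals, which cover counting error only, reached down to 16.0% in ICI and up to 9.33% in isotype. Tnnt2 went the other way, with 14.1 ± 0.675% in ICI and 25.4 ± 3.28% in isotype, and no overlap. Myl2 (8.66 ± 0.989% against 4.80 ± 1.34%) and Myl3 (8.87 ± 1.1% against 4.60 ± 1.37%) held larger shares in ICI without overlap, while the shares of Myh6, Actc1, Tnni3, Ttn and Nppa overlapped. For 1 count of Tnnt2 there were 1.30, 1.26 and 1.57 of Mb in ICI and 0.194, 0.125 and 0.135 in isotype. Between the mean profiles of the groups, 25.2 percentage points of the counts were placed differently. The 6 pairs of libraries within a group differed by 5.76 to 15.9 points, and the 9 pairs between groups by 19.98 to 31.6, so the ranges did not overlap. Shares sum to 100%, so a larger share of Mb lowers the others.

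**Figure D3:**
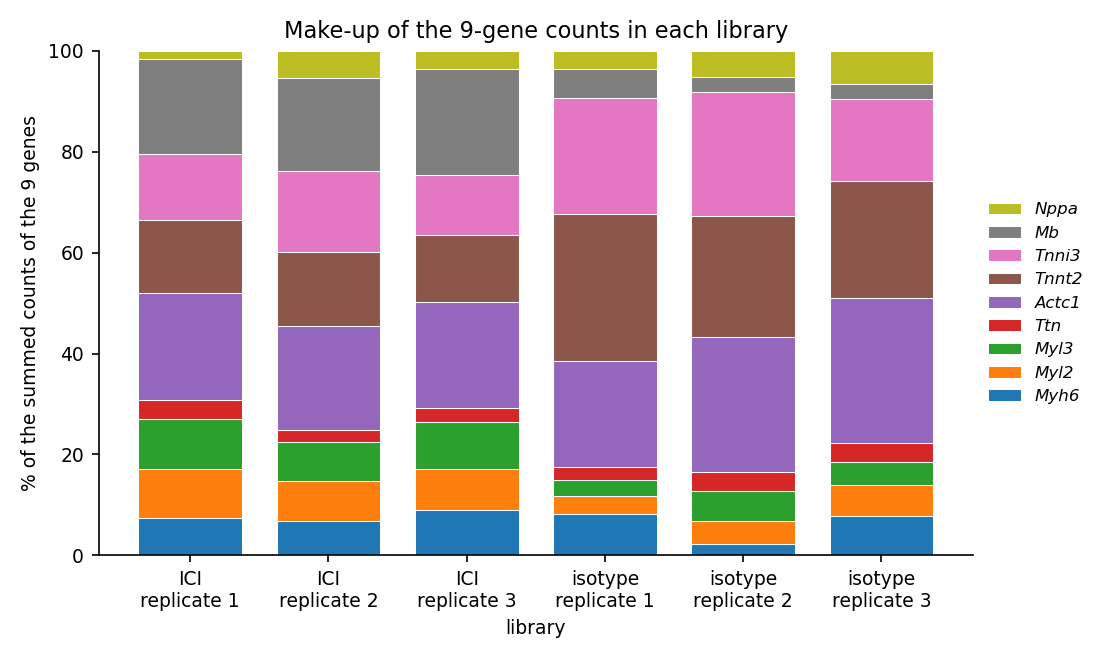
Share of each of the 9 genes in their summed counts, in % (y axis), for the 6 libraries (x axis), 1 colour a gene. The grey band of Mb takes 18.4% to 20.9% in ICI and 2.99% to 5.67% in isotype, and the brown band of Tnnt2 is the wider one in isotype.

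Levels of different genes are compared here per length, as RPKM (CPM divided by the kilobases of the longest APPRIS principal transcript of an older annotation, GENCODE M21). On that scale Mb led in ICI at 9.54 ± 2.03, followed by Tnni3 at 8.04 ± 0.368, Actc1 at 7.72 ± 1.33 and Tnnt2 at 6.34 ± 0.891. Myl2 (5.31 ± 1.28) and Myl3 (5.20 ± 1.39) came next, and the library values of neighbours in the order so far overlapped. Nppa (2.14 ± 0.896), Myh6 (0.691 ± 0.193) and Ttn (0.0166 ± 0.00568) followed, each without overlap with the gene before it. In isotype the order began with Tnni3 (1.99 ± 0.474), Tnnt2 (1.91 ± 0.768) and Actc1 (1.61 ± 0.905 RPKM), which overlapped. Mb, at 0.320 ± 0.151, had a lower mean than Nppa, Myl2 and Myl3, but the library values of these 4 genes overlapped. The transcript of Ttn is 100404 bases long and that of Myh6 6113, against 865 for Nppa, and the longest transcripts had the lowest values per length.

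Atp2a2 moved opposite to the other heart muscle genes. It had 4857, 5197 and 4826 counts in ICI and 8010, 7195 and 7697 in isotype (ENSMUSG00000029467), or 213, 219 and 224 against 271, 292 and 250.4 CPM. Every ICI library lay below every isotype library, as for 28.2% of all tested genes. It fell by 0.51 on the log2 scale (SE 0.09, adjusted p = 0.000534), 1.43-fold lower in ICI, a size that was not called against a 1.5-fold change (adjusted p = 0.837). Per length it stood at 48.8 ± 1.24 RPKM in ICI and 60.4 ± 4.61 in isotype, above each of the 9 other genes. The gene count does not separate the heart muscle form of the pump from the form that most cells make.

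The leukocyte relative of the pump went the other way. Atp2a3 encodes SERCA3, a pump found in blood cells, and stood at 145 ± 49.3 CPM in ICI and 47.9 ± 3.46 in isotype, 2.62-fold higher (adjusted p = 0.000657). For 1 count of Atp2a3 there were 1.79, 1.91 and 1.11 of Atp2a2 in ICI and 5.90, 6.35 and 4.82 in isotype. Of 15 genes of calcium stores and calcium entry in leukocytes, 6 were called higher, 4 lower and 5 not called, where 35.0% of all tested genes were called higher and 33.9% lower. The median of their log2 fold changes was 0.08. Calr, the calcium-binding chaperone of the store, was 1.72-fold lower (adjusted p = 7.9e-05), and Atp2b1, a calcium pump of the outer membrane, was 1.60-fold higher (adjusted p = 0.000318). Atp2c1, the pump of the Golgi, was not called, at 205 ± 14.0 against 188 ± 6.95 CPM.

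Other genes of the sarcomere and its Z-disc mostly moved with the 9. Of 26 listed, 16 had enough counts to be tested, 13 were called higher, 1 lower and 2 not called. Among all tested genes 35.0% were called higher and 33.9% lower, and 47.9% were called higher in the CPM range of the 9 genes. The median of their log2 fold changes was 1.95. The summed level of the 26 was 61.2 to 69.0 CPM in ICI and 21.6 to 35.4 in isotype. Tpm1, a tropomyosin of muscle and of other cells, stood at 33.8 ± 2.24 against 12.8 ± 2.87 CPM (2.29-fold higher, adjusted p = 6.83e-05). Myom1, which ties thick filaments together in the M-band, stood at 8.45 ± 2.33 against 1.34 ± 0.765 CPM (5.33-fold higher, adjusted p = 0.000344). Ankrd1, a stress-responsive nuclear and sarcomeric protein of heart muscle, was the gene called lower. Its counts were 8, 17 and 6 in ICI and 226, 170 and 289 in isotype, a 19.98-fold difference (adjusted p = 1.2e-06) in the direction opposite to the 13 called higher. Des, the intermediate filament of muscle, was not called at 1.95 ± 0.444 against 1.83 ± 0.911 CPM. The other gene not called was Myom2, an M-band protein chosen after its values were seen, with 13, 5 and 7 counts in ICI and 8, 20 and 13 in isotype (log2 fold change -0.59, adjusted p = 0.352).

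Of 18 genes of cardiac calcium handling and excitation, 7 were tested, 4 were called higher, 1 lower and 2 not called, beside 35.0% higher and 33.9% lower among all tested genes. The median of their log2 fold changes was 0.70. With no filter on low counts, 17 were tested, 7 called higher and 2 lower, and the median was 2.21. Of all 26866 genes tested with no filter, 5904 were called higher and 5119 lower, and the median was 0.11. Over all 18, the groups did not overlap for 10, with ICI higher for each of the 10. That pattern held for 45.3% of all tested genes and for 55.9% of those in the CPM range of the 9 genes, so it was common. Kcnq1, a potassium channel of the heart, was chosen after its values were seen. It had 196, 120 and 152 counts in ICI and 2, 0 and 8 in isotype, with a log2 fold change of 5.62 (adjusted p = 4.65e-06), or 7.14 without isotype replicate 3. Pln, phospholamban, the inhibitor of the SERCA2 pump, had 146, 189 and 182 counts in ICI and 31, 22 and 84 in isotype. The groups did not overlap, and Pln was 4.15-fold higher (adjusted p = 0.0006), or 6.57-fold without isotype replicate 3. Ryr2, the calcium release channel of heart muscle, had 29 counts in ICI and 3 in isotype and was not tested, with a ratio of 12.1 per library size (95% counting interval 3.74 to 61.9). Rrad, a small GTPase that restrains calcium channels, was 1.62-fold higher (adjusted p = 0.000823). Slc8a1, the sodium-calcium exchanger, overlapped between groups at 45.7 ± 2.74 against 49.2 ± 4.56 CPM. It was called 1.24-fold lower (adjusted p = 0.0179), and the call was lost without ICI replicate 1, isotype replicate 1 or isotype replicate 2 (adjusted p 0.0506 to 0.0664), and also with upper-quartile factors or library totals alone. S100a1 was not called at 32.9 ± 3.81 against 35.6 ± 6.23 CPM (adjusted p = 0.0581), but was called lower without ICI replicate 1 or isotype replicate 2 (adjusted p 0.0296 and 0.0229).

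Atrial genes were present at low counts, most of them in ICI libraries. Of 7 listed, 2 were tested and both were called higher, where 35.0% of all tested genes were called higher. Both passed the filter through their ICI libraries alone, so a call of lower was hardly open to them. The share of all tested genes is therefore no fair comparison here. The summed level of the 7 was 3.38 to 3.88 CPM in ICI and 0.122 to 0.260 in isotype. Myl7, the regulatory light chain of atrial myosin, had 18, 38 and 29 counts in ICI and 0, 2 and 0 in isotype. Myl4, the atrial essential light chain, had 26, 22 and 34 in ICI and 4, 0 and 3 in isotype (12.1-fold higher, adjusted p = 0.000221). The count ratio per library size of Myl7 was 53.1 (95% counting interval 14.2 to 445). Sln, sarcolipin, which regulates the calcium pump in atrial muscle, had 43 counts against 1, and Corin, the enzyme that cuts the Nppa precursor, had 30 against 3. ICI replicate 2 was the highest of its group for Myl7 and Sln, as it was for Nppa. It was the lowest of its group for Myl4, and Corin was highest in ICI replicate 1, so the atrial genes did not share 1 order.

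Of 21 genes of cardiac metabolism and protein folding, 17 were tested, 8 were called higher, 4 lower and 5 not called, again beside 35.0% higher and 33.9% lower among all tested genes. The median of their log2 fold changes was 0.31. Acsl1, a fatty acid activating enzyme that macrophages also make, was 2.55-fold lower, and Slc25a4, the mitochondrial carrier of ATP and ADP, was 2.25-fold lower (adjusted p = 3.53e-06 and 1.39e-06). Eno3, the muscle enolase, was 1.41-fold higher (adjusted p = 0.0143), a call lost without ICI replicate 1, ICI replicate 2 or isotype replicate 1 (adjusted p 0.0521 to 0.0627). Mlycd was not called at 22.02 ± 2.23 against 19.2 ± 0.598 CPM. Fabp3, the fatty acid binding protein of heart muscle, chosen after its values were seen, had 125, 110 and 134 counts in ICI and 21, 22 and 21 in isotype (6.23-fold higher, adjusted p = 6.4e-06).

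Of 9 cardiac transcription factors, 5 were tested, 4 were called higher and 1 lower, beside 35.0% higher and 33.9% lower among all tested genes. Mef2c and Mef2a, which macrophages also express, stood at 338 ± 27.8 against 36.9 ± 16.7 and at 448 ± 42.8 against 243 ± 32.3 CPM (adjusted p = 0.000337 and 0.000305). Srf, which binds the CArG box, was 2.09-fold lower (adjusted p = 1.44e-05). Tbx20, a T-box factor of heart muscle, had 38, 14 and 30 counts in ICI and 2, 1 and 7 in isotype. It was called 8.65-fold higher (adjusted p = 0.00121), and 17.1-fold without isotype replicate 3. Of 14 skeletal muscle relatives of these genes, 5 were tested, with Acta1 called higher, Tnni2 lower and 3 not called. This too stands beside 35.0% higher and 33.9% lower among all tested genes. The median log2 fold change of the 5 was 0.12. With no filter on low counts, 11 were tested, 3 called higher and 1 lower, and the median was 1.37. Of all 26866 genes tested with no filter, 5904 were called higher and 5119 lower, and the median was 0.11. Tnnt3, the fast skeletal troponin T, had 38 counts in ICI and 9 in isotype, a ratio of 5.27 per library size (95% counting interval 2.51 to 12.4). Atp2a1, the skeletal SERCA1 pump, had 21 against 6, a ratio of 4.37 (1.71 to 13.2). These 2 genes were chosen after their values were seen, did not pass the filter, and did not overlap between groups. The myosin heavy chains Myh1, Myh2 and Myh4 of fast skeletal muscle had 0 counts in all 6 libraries. Tnni2 overlapped between groups at 3.24 ± 0.179 against 4.18 ± 0.825 CPM (adjusted p = 0.0244), and its call was lost without any 1 of 4 libraries (ICI replicate 2 or 3, isotype replicate 1 or 3, adjusted p 0.0575 to 0.0774) and with the same other factors. Ryr1 (5.30 ± 0.273 against 3.51 ± 0.296 CPM), Tnnt1 (1.08 ± 0.236 against 1.01 ± 0.369) and Mylpf (0.587 ± 0.177 against 0.469 ± 0.0760) were not called.

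**Figure D4:**
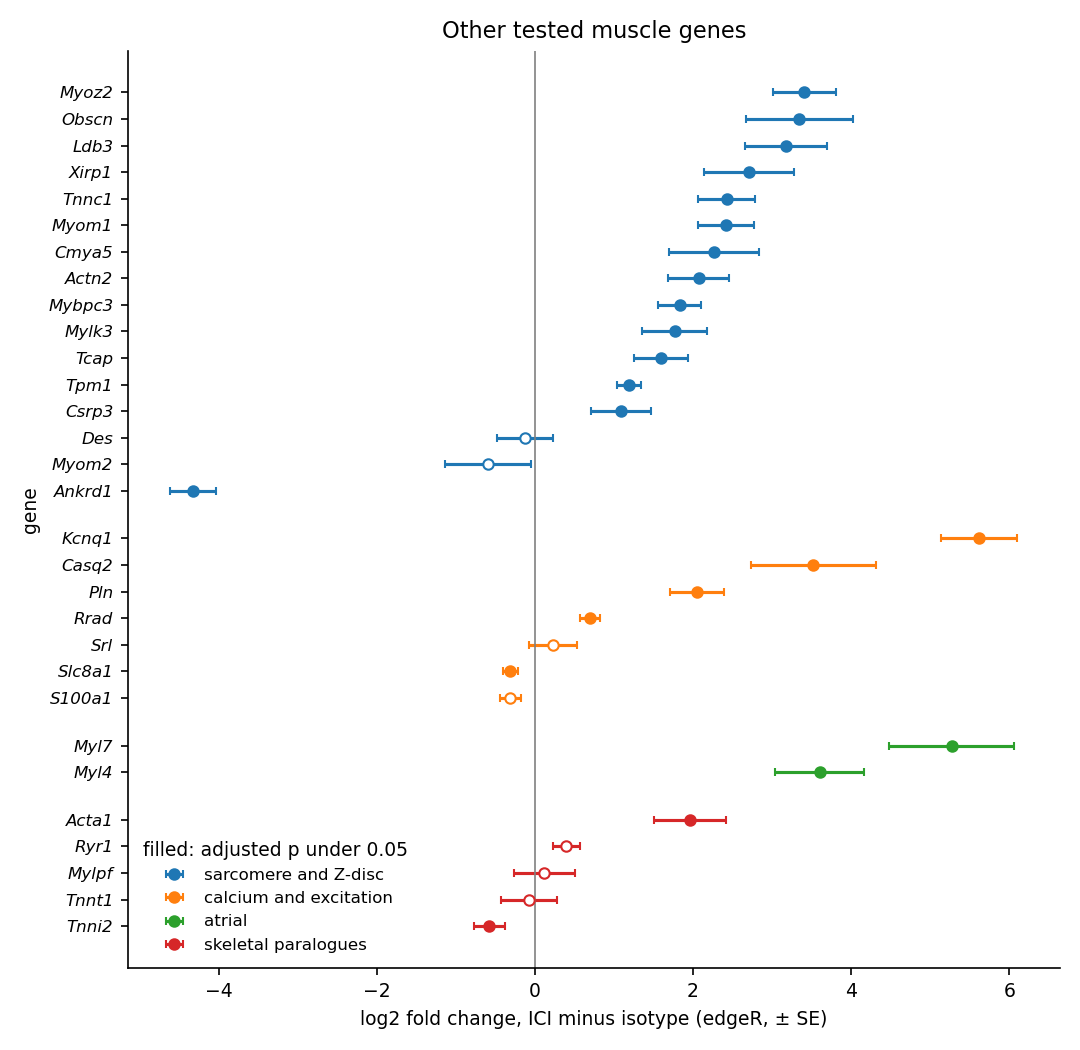
Log2 fold change (ICI minus isotype) with its SE from edgeR for every tested gene of 4 lists of muscle genes, coloured by list, filled where the adjusted p is under 0.05. Most sarcomere genes lie between 1 and 4 while Ankrd1 lies at -4.32, and the skeletal relatives that passed the filter lie nearer to 0, apart from Acta1.

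Most genes of the actin and myosin that all cells use ran opposite to the heart muscle forms. Of 14 non-muscle actin and myosin genes tested, 11 were called lower, 0 higher and 3 not called, beside 33.9% lower among all tested genes. Against a 1.5-fold change 5 were called lower, as were 2410 of all 14575 tested genes. The groups did not overlap for 9 genes with ICI lower and for 1 with ICI higher, as for 28.2% and 45.3% of all tested genes. The median of their log2 fold changes was -0.62. Actb, the beta-actin of all cells, stood at 6673 ± 715 CPM in ICI and 8895 ± 869 in isotype (1.53-fold lower, adjusted p = 0.00128). Cfl1 was 1.73-fold lower and Actr3 1.43-fold lower (adjusted p = 3.27e-05 and 0.00151), and Actg1 was not called at 3355 ± 148 against 3357 ± 188 CPM. With TMM factors replaced by upper-quartile factors or library totals alone, 1 gene of this list was called higher and 9 or 8 lower. Of all 14575 tested genes, 42.2% or 42.9% were then called higher, and 3849 or 3723 genes lower.

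Markers of other cells of the heart moved in the same direction as the heart muscle genes. The counts of calls given next stand beside 35.0% of all tested genes called higher and 33.9% called lower. Of 12 fibroblast markers, all tested, 10 were called higher and 2 not called. Their sum was 234, 82.9 and 87.9 CPM in ICI replicates 1, 2 and 3 and 21.0 to 23.5 in isotype. Dcn, decorin, stood at 47.2 ± 29.2 against 1.96 ± 0.376 CPM (21.0-fold, 13.3-fold without ICI replicate 1), and Col1a1 at 12.1 ± 11.1 against 1.89 ± 0.498 (adjusted p = 0.0405). The fold of Col1a1 fell from 5.64 to 2.60 without ICI replicate 1, and the call was lost without isotype replicate 1, 2 or 3 (adjusted p 0.109 to 0.116). Col3a1 and Pi16 were not called. Col3a1 was called in 7 of 18 alternatives, among them DESeq2, limma-voom and the fits without ICI replicate 1 or ICI replicate 2. Of 12 pericyte and smooth muscle markers, 8 were tested and 8 called higher, with a sum of 21.3 to 31.4 CPM against 3.05 to 4.42. Acta2, the smooth muscle actin, stood at 7.31 ± 1.12 against 2.08 ± 0.483 CPM, Myh11 at 4.14 ± 1.75 against 0.111 ± 0.103, Rgs5 at 3.84 ± 0.317 against 0.0438 ± 0.0496 and Tagln at 2.74 ± 0.704 against 0.863 ± 0.135. Of 12 endothelial markers, 10 were tested, 8 called higher, 1 lower and 1 not called. Their sum was nonetheless lower in ICI, 36.2 to 46.9 against 117 to 186 CPM, through Flt1 at 12.2 ± 3.34 against 152 ± 35.9 CPM. Fabp4 (8.34 ± 3.05 against 0.952 ± 0.0501), Kdr (7.47 ± 0.460 against 2.80 ± 0.390) and Tek (2.95 ± 0.831 against 0.319 ± 0.180 CPM) were called higher. The part of these cells in the level of the heart muscle genes was not tested.

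Globin genes of red blood cells and 1 platelet marker were also called higher in ICI. Of 7 erythroid markers with a row in the table, 4 were tested and 4 called higher, where 35.0% of all tested genes were called higher. The sum of the 7 was 19.3 to 38.8 CPM in ICI and 0.325 to 2.56 in isotype. The 4 called genes were the globins Hbb-bs, Hba-a2, Hba-a1 and Hbb-bt, near-identical copies whose counts are uncertain one by one. Isotype replicate 3, the highest isotype library for the heart muscle genes, had the lowest erythroid sum of the 6 libraries. Of 6 platelet markers, 2 were tested: Ppbp had 454 counts in ICI and 1 in isotype and was called higher, and Itga2b was not called. Gp9 had 25 counts against 3 and Tubb1 12 against 2. Schwann cell markers summed to 0.675 to 1.16 CPM in ICI and 0.0811 to 0.135 in isotype, and mesothelial markers to 0.175 to 0.557 against 0.0406 to 0.135. None of these 6 and 6 genes was tested, and Msln was at 0 in all 6 libraries. Their part in the result was not tested.

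Markers of leukocyte types also differed between the groups. Their counts of calls stand beside 35.0% of all tested genes called higher and 33.9% called lower. Of 10 pan-leukocyte markers, 6 were called lower, 0 higher and 4 not called, and their sum was 10970 to 11313 CPM in ICI and 11562 to 11990 in isotype. Coro1a was 1.44-fold lower (adjusted p = 0.000342), while Ptprc, Laptm5 and Lcp1 were not called. With upper-quartile factors or library totals alone, 3 of the 10 were called higher, beside 42.2% or 42.9% of all tested genes. Of 10 resident macrophage markers, 9 were called higher and 1 not called, with a sum of 10956 to 12457 against 1375 to 1672 CPM. F13a1, Mrc1 and Cd163 stood at 4397 ± 477, 1836 ± 60.8 and 1029 ± 131 CPM in ICI and at 197 ± 49.3, 76.0 ± 20.5 and 0.884 ± 0.480 in isotype, and C1qa was 1.33-fold higher (adjusted p = 0.00824). Of 8 monocyte markers, 7 were called lower and 1 not called, with a sum of 990 to 1255 against 4533 to 9195 CPM. Chil3, Ly6c2, Ccr2 and Plac8 were each lower, with Chil3 at 113 ± 0.524 against 3941 ± 1990 CPM. Of 10 T cell markers, 6 were tested, 4 called higher, 1 lower and 1 not called, with a sum of 26.8 to 40.6 against 6.13 to 7.81 CPM. Cd4 (14.3 ± 4.77 against 0.621 ± 0.430 CPM), which mouse macrophages can also express, and Lck (11.9 ± 2.37 against 2.99 ± 0.350) led it. Trac, the constant region of the T cell receptor alpha chain, was the gene called lower, with 6, 5 and 8 counts in ICI and 21, 11 and 17 in isotype (adjusted p = 0.0260). Its call was lost without ICI replicate 1, ICI replicate 2 or isotype replicate 1 (adjusted p 0.0656 to 0.102), with library totals alone and with DESeq2 (adjusted p = 0.113). Cd8a had 20 counts in ICI and 40 in isotype and Cd8b1 10 and 27, and both were too low to be tested. Cd3e was not called, at 34 counts against 32. These 4 genes were chosen after their values were seen. The calls of Cd247 and Cd3g (adjusted p = 0.0105 for both) were lost without isotype replicate 1 (adjusted p 0.0515 and 0.0547). The part of these leukocyte differences in the heart muscle values was not tested.

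**Figure D5:**
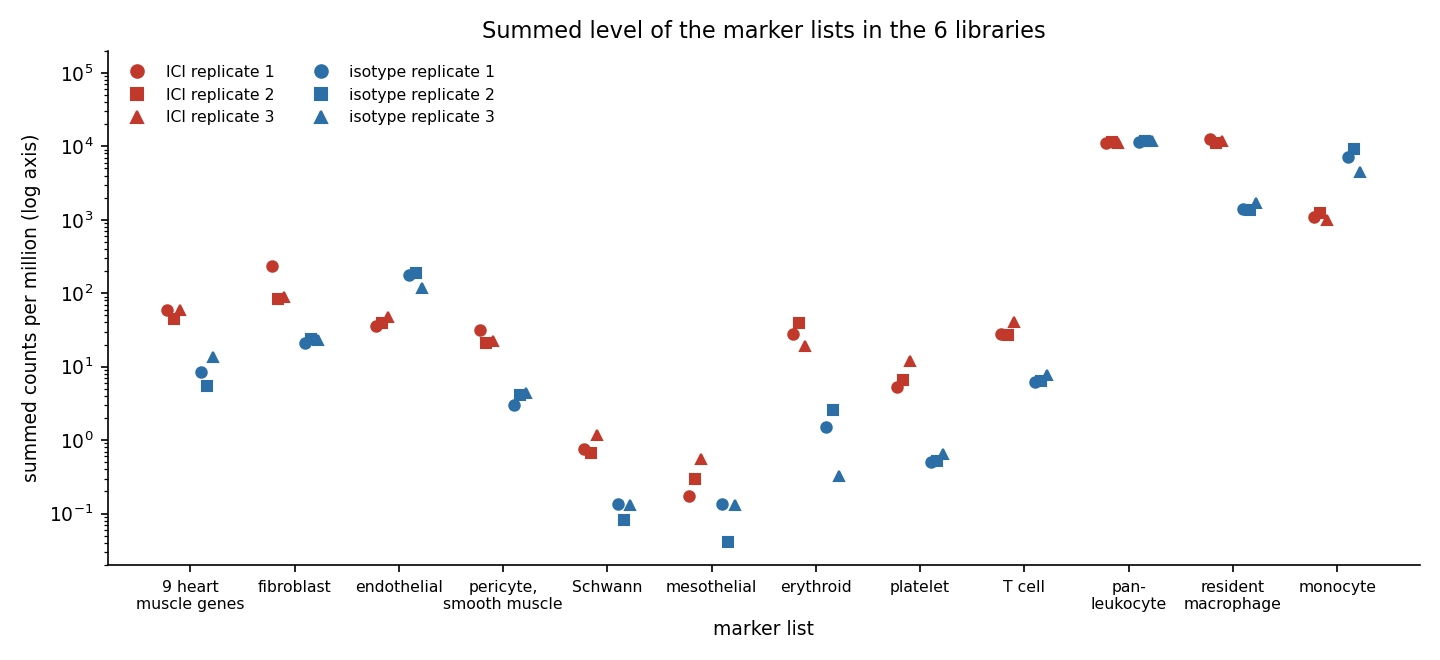
Summed CPM (log axis) of the 9 heart muscle genes and of 11 marker lists in the 3 ICI libraries (red) and the 3 isotype libraries (blue), with the replicate number as the marker shape. The heart muscle, fibroblast, pericyte, erythroid, platelet, T cell and resident macrophage sums lie higher in ICI, the endothelial and monocyte sums lie higher in isotype, and the pan-leukocyte sums lie close together.

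The genes with the pattern most like that of the 9 were not heart muscle genes. Likeness was Pearson's r of log2(CPM + 0.5) with the mean of the 9 genes over the 6 libraries, given as a description over points that share 2 groups and their depths. Enho led with r = 0.9999, at 3.66 CPM in ICI and 0.255 in isotype, followed by Hfe, Camk1, Pyroxd2 and Ptgr2. Of 12245 genes compared, 4082 had an r above 0.9, so the order among the first says little. With the group means subtracted from both, the first 5 were Galt, Zfr2, Ptgr2, Enho and Hars2, and 619 genes had an r above 0.9. On that measure the r of the 9 genes themselves ran from 0.371 for Nppa and 0.774 for Mb to 0.969 for Actc1.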

How the data were processed

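RNA of CD45+CD90.2- heart cells was measured in 6 libraries, 3 labelled ICI and 3 isotype, made per the labels' protocols with a SMART-seq V4 kit for small amounts of RNA, which keeps no strand, and read as pairs. The values are raw counts in a single table that the authors deposited, 1 row an Ensembl gene and not normalized. Per the submitters' processing notes, the tools were STAR 2.7.10a and Salmon 1.10.1 and the build was GRCm39. The sources used here do not give their roles, the annotation or whether the counts are rounded estimates. No gene coordinates are given, because the annotation used here belongs to an older build. Reads of overlapping genes cannot be told apart.

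Columns were tied to samples by the library names in the labels, and symbols to 52029 of 57010 identifiers through a name table. The main test was edgeR 4.0.16 (glmQLFit, robust, glmQLFTest) with limma 3.58.1 in R 4.3.3, TMM factors and filterByExpr (minimum count 10), fitted on all 6 libraries with group as the only term. Alternatives used DESeq2 1.42.0, limma-voom, other factors and filters and each library left out. CPM, RPKM and shares were computed here from the counts with pandas 2.3.3, and counting intervals with scipy 1.17.1. Depth per library sets the precision: at 21528274 counts, 3 counts are the floor for a gene at 0. Replicates of a group differed beyond counting noise (chi-square over degrees of freedom 13.9 to 38.0), so none was counted as a duplicate. P-values measure the spread between these libraries. With 3 against 3, an exact permutation test could not go below 0.1, so none was used.

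The genes named were all 10 members, up to 4 genes of each of the 19 further lists by mean CPM, the 5 most alike by each of the 2 measures of likeness, and Myh7, Acta1, Ryr2, Pln, Nppb, Ptprc and Thy1. Fabp3, Kcnq1, Myom2, Tnnt3, Atp2a1, Trac, Cd3e, Cd8a and Cd8b1 were added after their values were seen. The members and the lists were chosen with earlier results of these data known. Ahsp and Myl12b were not matched to a single row and were not used here.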

Additional observations from a re-analysis of the deposited data

How the results depend on the processing

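All 9 heart muscle genes kept their direction under 18 alternatives, and 9 were called in each except without isotype replicate 1, where Nppa was not (8 called), and under the strict filter of at least 50 counts in 3 libraries, where Ttn and Nppa were not tested and 7 of 7 were called. Over the libraries left out in turn, the count of called members was thus 8 to 9. Atp2a2 stayed lower, by 0.31 with library totals alone to 0.60 without isotype replicate 3 on the log2 scale, and lost its call against a 1.5-fold change. Against that change 5520 genes were called (3110 higher, 2410 lower) in place of 10040, with 9 of the 9 among them; fewer pass by construction. With upper-quartile factors or library totals alone the median over all genes of the log2 fold change moved from 0.03 to 0.21 and 0.23, and the calls split into 6155 higher and 3849 lower or 6255 and 3723, beside 5102 and 4938. With a replicate block, 9 of the 9 and 9992 genes were called. The labels tie no libraries across groups by number, and the numbers were not taken as pairs: the correlation of deviations between libraries of the same number was 0.0595, 0.0964 and 0.156, not above 0.1 in all 3, and ICI replicate 2 correlated best with isotype replicate 1 (0.109). Replicate 3 of both groups also shared Xist counts (2786 and 1844). With the block S100a1 was called lower (adjusted p = 0.0391), as it was with no filter (0.0405); the block changed no other call among the genes named. The ratio of the summed level was 5.20 with TMM factors, 5.24 with RLE factors and 4.96 to 7.86 over the libraries left out. The share profiles differed by 23.6 to 27.2 points over the libraries left out and by 27.7 points per kilobase. Both TMM factors for the sum and the libraries left out for the shares were chosen after seeing the data, as were the alternatives for the other named genes.

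Of 1564 values for 88 tested genes, 45 lost a call, 23 gained one and 32 changed sign, the last in genes that were not called in the main test. Values below are log2 fold changes. Mlycd gave 0.00518 with RLE factors, 0.00516 with DESeq2, 0.18 with upper-quartile factors, 0.20 with library totals alone and 0.0810 under the strict filter. With upper-quartile factors and library totals alone, Atp2c1 gave 0.11 and 0.13, Des 0.0526 and 0.0699, Itga2b 0.14 and 0.17, Laptm5 0.15 and 0.17 and Tnnt1 0.11 and 0.13, and Actg1 gave 0.000213 with library totals alone. Under the strict filter Atp2c1 gave 0.0111 and Laptm5 0.0512. Without replicate 3 of both groups, Atp2c1 gave 0.00914, Des 0.45 and Tnnt1 0.14. Over single libraries left out, Mlycd ran from -0.0512 to 0.0747, Des from -0.38 to 0.31, Itga2b from -0.41 to 0.17, Tnnt1 from -0.35 to 0.16, Atp2c1 from -0.13 to 0.00796 Mylpf from -0.16 to 0.28 and Cd3e from -0.0902 to 0.61. The cause was not tested. Depth limits Myh7, Nppb, Ryr2, Sln and the other genes with few counts per library, for which a difference was not detectable or not tested.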
